A study of Mus musculus with 6 samples.

Results

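BMP and TGF-beta pathway genes were examined for binding by Bcl6, a zinc finger transcriptional repressor, in mouse cortical progenitors that had been differentiated from embryonic stem (ES) cells. The set held 38 named genes of ligands, receptors, Smad proteins, secreted antagonists and Id targets, and a gene counted as bound where the authors' gene list named it for a Bcl6 peak. By this rule 15 of the 38 genes (39.5%) had at least 1 peak, against 20.1% of 21887 protein-coding genes, and 23 genes had none. A peak centred within 1 kb of the gene's transcription start was listed for 6 of the 38 (15.8%), against 10.8% of protein-coding genes. The 15 genes shared 30 peaks among the 3878 of the whole data set. No RNA was measured here, so neither the progenitor identity of the cells nor the expression of any gene could be checked against markers.

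Chromatin of these cells was precipitated with a Bcl6 antibody and sequenced (ChIP-seq) in 3 libraries, and 3 libraries of input DNA served as control, all from the A2 lox.Cre Bcl6 line at differentiation day 12. Cells of both groups carried a tetracycline-inducible Bcl6 transgene, had received cyclopamine, an inhibitor of hedgehog signalling, at 400 ng/ml from day 2 to day 10, and were exposed to 1 µg/ml doxycycline for 24 h to induce Bcl6. Uninduced cells were not analysed here, and Bcl6 from the transgene and from the endogenous gene cannot be told apart. The authors pooled each group before calling peaks, on 11718276 retained ChIP tags (20.6% of 56836596) against 5048582 retained input tags (39.4% of 12808138). Each peak therefore has 1 value, computed by the authors' peak caller, with no replicate error, and no difference below was tested.

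Ligands of the TGF-beta superfamily bind paired type I and type II receptor kinases, which phosphorylate receptor-activated Smad proteins. Smad1, Smad5 and Smad9 act downstream of BMPs, Smad2 and Smad3 downstream of TGF-beta, activin and Nodal, and all of them enter the nucleus with the common Smad4. Smad6 and Smad7 inhibit the pathway, and antagonists such as Noggin trap the ligands outside the cell. In the developing forebrain BMPs are known for patterning the dorsal midline and, later, for inducing the Id genes and astrocyte fate.

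Sequences were printed for 4 member promoters that a Bcl6 peak covered in whole or in part, because the peak sat on the transcription start site (TSS) itself. Each stretch runs 5′ to 3′ on the gene's own strand for 280 bases, from 250 before the start to 30 after it, in GRCm38.p6 (the build also called mm10), from RefSeq. Smad5 lies at chr13:56702760-56703039 on the plus strand, and Smad6 at chr9:64022030-64022309, Smad1 at chr8:79399399-79399678 and Acvr1 at chr2:58566799-58567078 lie on the minus strand. Capitals mark the matches to 4 motifs searched on both strands. These were TTCCTNGAA and TTCNNNGAA, the stringent and relaxed forms of the element that Bcl6 is known to share with STAT factors, and GGCGCC and GTCTAGAC, known as Smad elements.
Smad5: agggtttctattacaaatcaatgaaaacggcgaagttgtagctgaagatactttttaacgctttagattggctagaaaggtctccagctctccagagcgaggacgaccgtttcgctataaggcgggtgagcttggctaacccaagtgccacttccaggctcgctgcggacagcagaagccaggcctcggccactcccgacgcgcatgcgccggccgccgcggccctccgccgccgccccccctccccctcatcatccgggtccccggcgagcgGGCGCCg
Smad6: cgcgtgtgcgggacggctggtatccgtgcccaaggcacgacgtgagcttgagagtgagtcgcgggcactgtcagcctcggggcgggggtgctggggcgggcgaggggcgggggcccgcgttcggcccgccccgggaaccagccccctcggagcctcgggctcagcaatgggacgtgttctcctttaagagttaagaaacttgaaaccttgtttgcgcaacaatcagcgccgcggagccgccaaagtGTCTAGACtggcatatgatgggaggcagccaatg
Smad1: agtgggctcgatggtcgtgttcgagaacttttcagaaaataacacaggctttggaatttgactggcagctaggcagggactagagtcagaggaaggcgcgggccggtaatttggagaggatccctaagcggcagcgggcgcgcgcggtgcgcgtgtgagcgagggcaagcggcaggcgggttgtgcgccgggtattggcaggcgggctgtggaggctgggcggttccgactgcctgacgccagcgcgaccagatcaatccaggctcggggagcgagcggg
Acvr1: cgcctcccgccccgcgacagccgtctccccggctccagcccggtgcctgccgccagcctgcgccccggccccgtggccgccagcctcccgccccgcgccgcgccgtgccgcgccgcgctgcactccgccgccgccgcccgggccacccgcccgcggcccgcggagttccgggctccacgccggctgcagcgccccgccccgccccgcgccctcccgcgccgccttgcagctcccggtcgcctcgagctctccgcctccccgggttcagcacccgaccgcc

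In these windows Smad5 held GGCGCC, which began 24 bases after the start, and Smad6 held GTCTAGAC, which began 4 bases before it. The Smad1 and Acvr1 windows held none of the 4 motifs. Promoters of 300 bases were found in the RefSeq table for 26 of the 38 members, and for 8 of the 15 with a peak, which had 10 promoters in all. GGCGCC was in 3 of these 10, from 2 of the 8 genes, since a pair of overlapping Smad5 promoters held the same site and the third was that of Id4, whose peak lay elsewhere. It was in 7 of 21 promoters of members without a peak (33.3%), in 25.5% of the 2533 promoters of genes with a peak within 1 kb and in 11.9% of all 32851 promoters. GTCTAGAC was in 1 of the 10 and in 0 of the 21, against 0.237% of promoters of genes with a peak within 1 kb and 0.213% of all. TTCNNNGAA, which includes every match of TTCCTNGAA, was in 0 of the 10 and in 0 of the 21 promoters of members without a peak. It was in 6.47% of promoters of genes with a peak within 1 kb and in 8.3% of all promoters. In so few promoters, 0 matches is not far from these shares. Unlike the set with a peak within 1 kb, the 10 include promoters of genes without a peak within 1 kb, Id4 among them. TTCCTNGAA itself was in 0.987% of promoters of genes with a peak within 1 kb and in 1.59% of all promoters. The 4 windows were rich in G and C (63.0 to 83.7% over the full 300 bases, Acvr1 the highest), against a median of 64.3% over promoters of genes with a peak within 1 kb and 52.7% over all promoters. The peak covered all 280 bases shown for Smad5, Smad6 and Acvr1 and 215 of those for Smad1. Its summit, the position of highest tag pile-up, lay outside the stretch shown in every one of the 4, from 986 bp upstream of the start at Smad6 to 265 bp downstream at Smad1.

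The peaks of the pathway genes were of ordinary strength, and most were centred more than 1 kb from a TSS. Their median enrichment over input was 23.3-fold (range 13.3 to 44.6), against 21.3-fold (7.98 to 269) over all peaks, and 17 of 30 lay above the median of all peaks. Of the 30 peaks 6 (20%) were centred within 1 kb of a TSS, against 56% of all peaks. Another 5 lay 1 to 5 kb from the member's TSS, 6 lay 5 to 50 kb away and 13 lay farther. Measured from every listed gene, 9 of 30 (30%) were over 50 kb from a TSS, against 8.9% of all peaks. The peaks held a median of 43.5 tags (22 to 232) against 58 for all peaks. Their p-value score, −10 log10 of the caller's p, had a median of 65.2 against 71.7, and their median width was 1326 bp against 1405 bp.

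**Figure D1:**
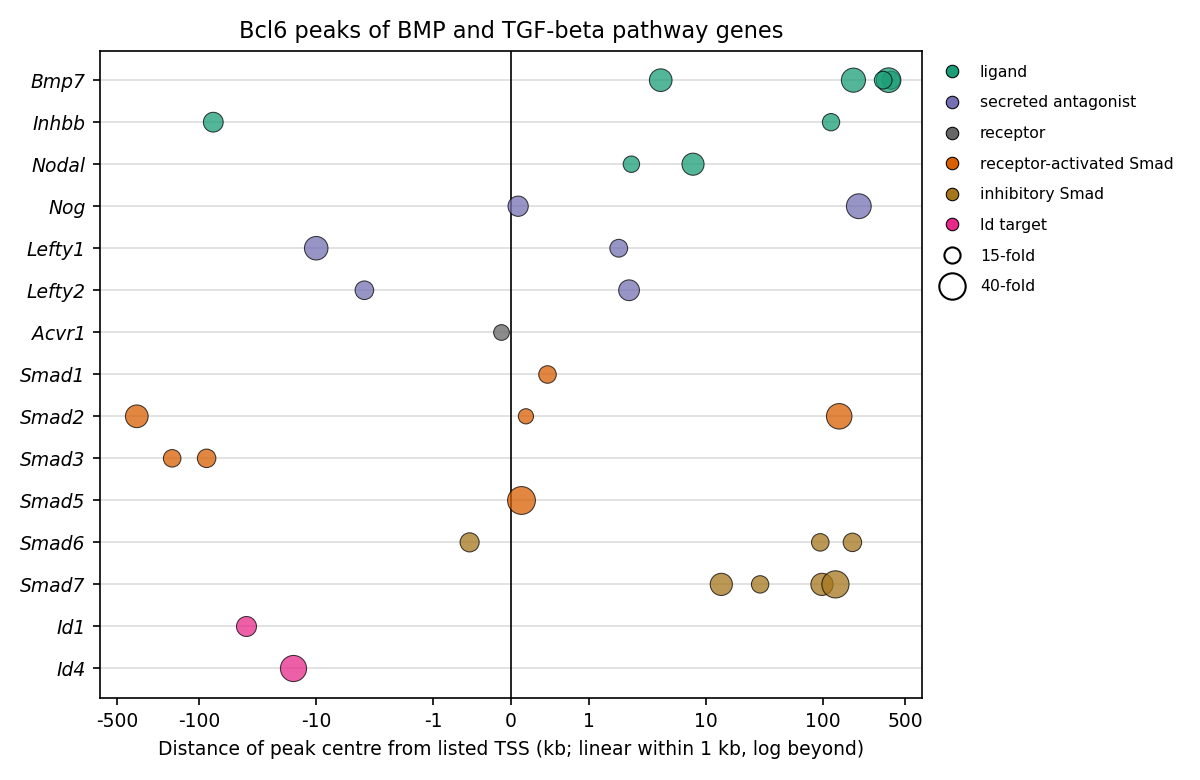
Position of every Bcl6 peak listed for the 15 members, as the distance of the peak centre from the gene's listed TSS in kb (linear within 1 kb and logarithmic beyond; negative is upstream). Each circle is 1 peak, its area proportional to fold enrichment and its colour the gene's role; the 2 peaks between Smad3 and Smad6 appear in both rows. The centres of 6 peaks lie within 1 kb of a TSS, and the circles of Bmp7, Smad7 and Smad2 reach beyond 100 kb.

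Many of the sites could not be tied to the pathway gene alone. The gene list named a second gene for 23 of the 30 peaks (76.7%), against 49.1% of all peaks. For 21 of them the other gene was outside the set, and for 7 of these its TSS was the nearer one. At the other 2 both genes were members, Smad3 and Smad6. The share with a second gene goes with distance from the TSS. None of the member peaks centred within 1 kb of a TSS had a second gene, and the share was not compared at matched distance. The median distance between the protein-coding genes that flank a member was 308 kb (34.2 to 1230) for the 15 members with a peak and 206 kb (24.6 to 3830) for the 23 without. The gene list extends each gene's domain toward its neighbours, and the part of this distance in the count was not tested.

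Most Smad genes had a peak. Of the 8 Smad genes 6 had a peak (75%), 4 of them within 1 kb of the TSS (50.0%). Of the 26 ligand, protease, antagonist and receptor genes 7 had a peak (26.9%), 2 of them within 1 kb (7.69%). The shares over all protein-coding genes were 20.1% with any peak and 10.8% with a peak within 1 kb, so the 26 genes lay near the background. The exceptions among the Smads were Smad4, the common partner, and Smad9. Their closest peaks lay 62.0 kb and 20.3 kb from the gene and were listed for Mex3c and for Alg5 and Exosc8.

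Smad5, which carries BMP signals, had the peak with the highest fold of the set. It reached 44.6-fold with 64 tags (exact 95% Poisson interval 49.3 to 81.7, counting error only), a score of 125 and a width of 1537 bp, on chromosome 13 from 56702375 to 56703911. Its centre lay 133 bp and its summit 150 bp downstream of the TSS, and the fold ranked at the 95.4th percentile of all peaks. The promoter shown above lay wholly inside it. Smad1, its close relative in BMP signalling, also had a peak at its TSS, centred 460 bp downstream. With 17.7-fold, 34 tags (23.5 to 47.5) and a score of 56.3 it was lower on all of these, and close to the lowest score of any peak in the table, 50.03. Per kb of peak the tags were 41.6 at Smad5 and 30.6 at Smad1.

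Smad2, which transmits TGF-beta, activin and Nodal signals, had 3 peaks on chromosome 18. The peak at its TSS, centred 191 bp downstream of it, was the weakest of the set by enrichment at 13.3-fold, though it held 71 tags over 1676 bp. A narrow peak of 676 bp lay 137 kb downstream, with 37.4-fold from 25 tags (16.2 to 36.9). The third lay 340 kb upstream with 29.6-fold and 78 tags. It was only 81.5 kb from the TSS of Zbtb7c, a BTB and zinc finger gene that was listed for it too. Smad3 had no peak near its TSS and was listed for 2 peaks on chromosome 9, 86.0 kb and 169 kb upstream, with 19.7- and 17.7-fold and 31 tags each.

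Both inhibitory Smad genes were bound. Smad6 shared the 2 peaks of Smad3, which lay 178 kb and 94.6 kb downstream of its TSS in the interval between the genes. It also had a peak of its own at the TSS, centred 531 bp upstream, of 21.1-fold with 84 tags (67.0 to 104) and a score of 116. That peak was 1980 bp wide and its summit lay 986 bp upstream, so the GTCTAGAC match at the start was inside the peak but far from the summit. Smad7 had 4 peaks on chromosome 18, all downstream of its TSS and spread over 115 kb, with no other peak of the data set among them. The nearest, 13.5 kb downstream and inside the gene body, reached 28.4-fold with 52 tags. The next, 29.0 kb downstream and just past the end of the gene, reached 17.5-fold with 35 tags. Farther out lay peaks of 28.4-fold with 51 tags at 97.8 kb and of 42.6-fold with 78 tags at 127 kb. The last had the highest score of any Smad peak, at 152. Ctif, a translation initiation gene, was listed for all 4 at 203 to 317 kb.

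Of the 8 receptor genes 1 had a peak (12.5%), a share that in so few genes is not far from the 20.1% of all protein-coding genes. It was Acvr1, a type I receptor for BMPs and activins, with a peak over its TSS on chromosome 2 with its centre 135 bp upstream. That peak was weak at 14.3-fold, the 11.9th percentile of all peaks, with 53 tags and a score of 62.0. Bmpr1a, Bmpr1b, Bmpr2, Acvr2a, Acvr2b, Tgfbr1 and Tgfbr2 had no listed peak. The closest peak to Bmpr1a lay 32.3 kb from the gene and was listed for Sncg and Mmrn2, while those closest to Bmpr1b and Acvr2a were over 2 Mb away, at 2220 and 2240 kb.

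**Figure D2:**
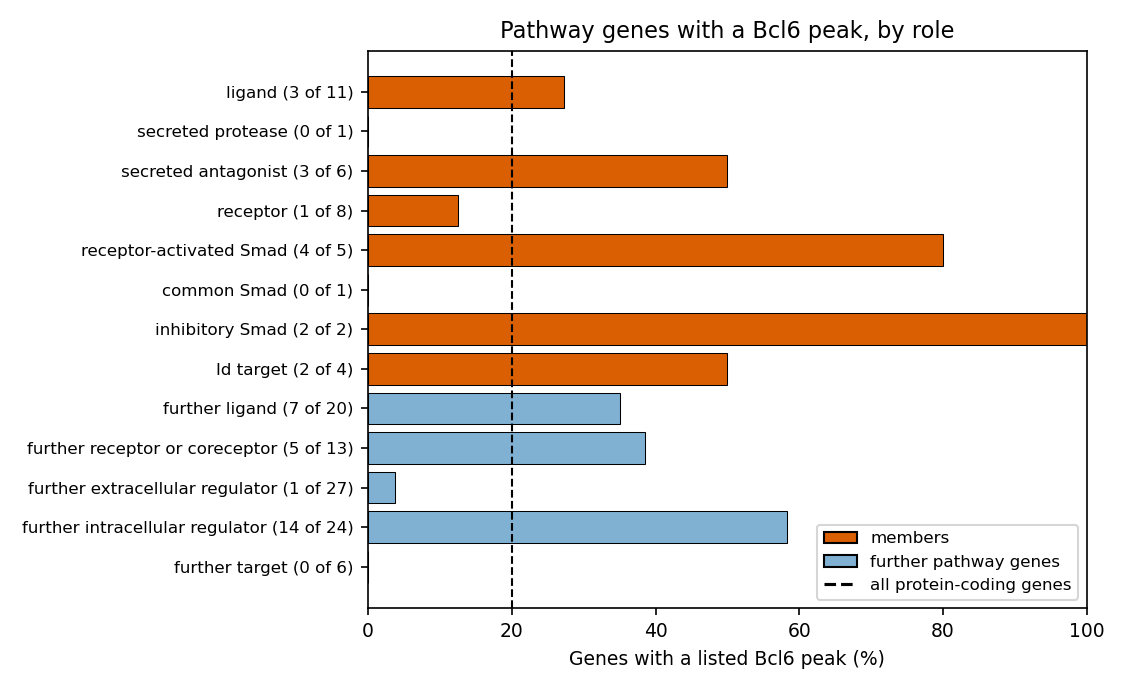
Share of genes with a listed Bcl6 peak (x axis, percent) by role (y axis), for the 38 members (orange) and 90 further pathway genes (blue), with the number of genes beside each name. The dashed line is the share of all protein-coding genes, 20.1%. Inhibitory Smads (2 of 2) and receptor-activated Smads (4 of 5) reach highest, and receptors (1 of 8) and further extracellular regulators (1 of 27) are among the roles under the line.

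Ligand genes with a peak were Bmp7, Nodal and Inhbb, 3 of 11, and none had a peak within 1 kb of its TSS. Bmp7, a BMP ligand of the dorsal telencephalon, was listed for 5 peaks on chromosome 2, the most of any member, spread over 378 kb downstream of its TSS. Only the nearest, 4.10 kb downstream and inside the gene, was clearly next to it. That peak was also the smallest of the set, with 22 tags (13.8 to 33.3), a width of 595 bp, a score of 51.3 and 29.6-fold. A peak of 33.5-fold with 28 tags lay 182 kb downstream. The other three, at 326, 363 and 381 kb, reached 18.1-, 34.9- and 18.9-fold and lay 63.1, 26.6 and 8.35 kb from the TSS of Tfap2c, which encodes the transcription factor AP-2 gamma.

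Nodal, the ligand of early axis and mesendoderm formation, had 2 peaks close together on chromosome 10, both over 2 kb wide. The first was centred inside the gene 2.30 kb downstream of the TSS, with 15.6-fold and 62 tags over 2095 bp. The second, at 7.73 kb and just past the gene's end, held 158 tags (134 to 185) over 3598 bp with 28.2-fold and a score of 284, the highest score of the set. Per kb of peak the tags were 29.6 in the first and 43.9 in the second. Eif4ebp2, a repressor of translation initiation, was listed for both at 32.4 and 27.0 kb. Inhbb, which encodes an activin subunit, was listed for 2 peaks on chromosome 1. The first lay 75.5 kb upstream with 22.6-fold and 42 tags, only 7.08 kb from the TSS of the GTPase gene Ralb. The second lay 117 kb downstream with 17.3-fold and 50 tags, and was listed for the hedgehog effector Gli2 at 252 kb. Bmp2, Bmp4, Bmp5, Bmp6, Tgfb1, Tgfb2, Tgfb3 and Inhba had none, and neither had Bmp1, a protease that cleaves Chordin.

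Secreted antagonists with a peak were Nog, Lefty1 and Lefty2, 3 of 6. Nog, which encodes the BMP trap Noggin, had a peak over its TSS on chromosome 11, centred 91 bp downstream with its summit 105 bp upstream, of 23.6-fold with 38 tags and a score of 65.0. A narrower peak of 751 bp lay 202 kb downstream with 35.5-fold and 28 tags, though only 26.8 kb from Gm525. Lefty1 and Lefty2, neighbouring genes for inhibitors of Nodal signalling, had 4 peaks within 51.3 kb of chromosome 1. Those of Lefty2 lay 3.86 kb upstream, with 20.0-fold and 130 tags over 2411 bp, and 2.20 kb downstream, with 24.8-fold and 34 tags. Those of Lefty1 lay 9.96 kb upstream, with 31.9-fold and 62 tags, and 1.79 kb downstream. The last was the widest of the set at 5136 bp, ran over the whole gene and held the most tags, 232 (203 to 264), with a fold of 18.2 and a score of 183. Chrd, Grem1 and Fst had no peak.

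Id genes, known BMP targets that encode inhibitors of basic helix-loop-helix factors, were bound away from their promoters or not at all. Id4, which is expressed in cortical progenitors, had a peak 15.8 kb upstream with 39.4-fold (percentile 93.2 of all peaks), 41 tags (29.4 to 55.6) and a score of 93.3 over 974 bp. The other gene listed for it, 4931429P17Rik, was 227 kb away. Id1 had a peak of 23.1-fold with 34 tags 39.4 kb upstream, which lay 9.67 kb from the TSS of Mcts2. Id2 and Id3 had none, and their closest peaks lay 442 and 35.0 kb away, listed for Klf11 and for Asap3 and E2f2.

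**Figure D3:**
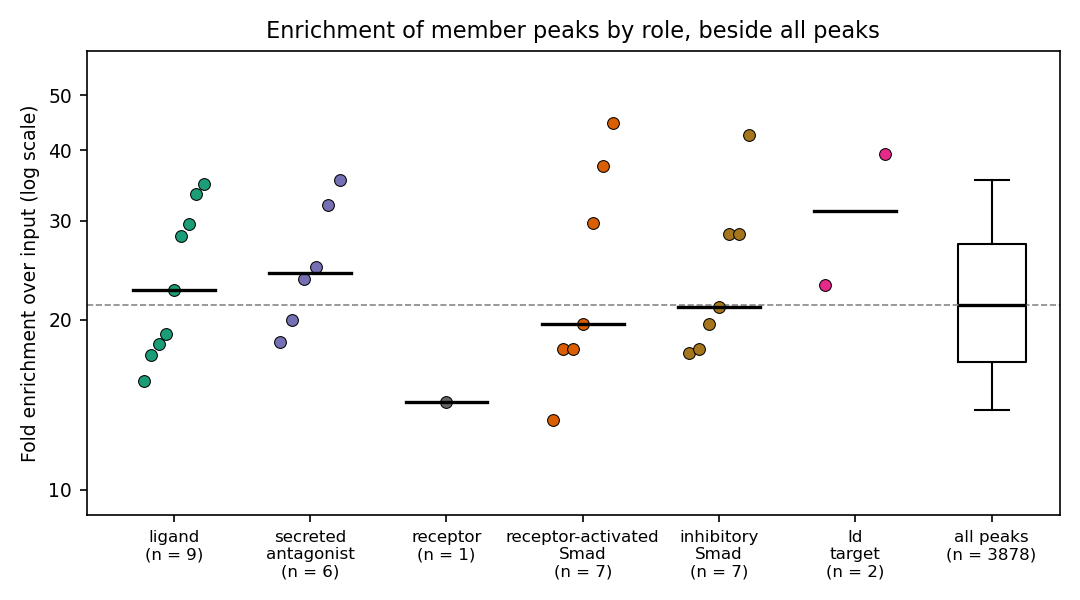
Fold enrichment over input of each member peak (log scale) by the role of its gene, with the median of each role as a bar; the 2 peaks shared by Smad3 and Smad6 appear in both Smad columns. The box at the right gives the quartiles of all 3878 peaks, with whiskers at the 10th and 90th percentiles, and the dashed line their median of 21.3-fold. Every role with at least 6 peaks has points on both sides of that line.

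The promoter peaks of the set had a lower median enrichment than the others. The 6 peaks within 1 kb of a member's TSS had a median of 19.4-fold (13.3 to 44.6), and the 24 others one of 26.5-fold (15.6 to 42.6). Over all peaks the medians were 20.3-fold and 21.9-fold. Tags and score went the other way in the set. Median tags were 58.5 for the 6 and 41.5 for the 24, and median scores 67.7 and 64.7. Over all peaks median tags were 60 and 55, and median scores 71.6 and 71.8. By fold, Smad5 was the promoter peak that stood above the others, since the next highest, that of Nog, reached 23.6-fold. Peaks in the highest 10% by fold, at or above 35.5-fold, were 5 of 30 (16.7%), against 10.1% of all peaks. They belonged to Smad5, Smad7, Id4, Smad2 and Nog, the last of which lay at the limit itself. Only that of Smad5 was at a promoter. The others lay 15.8 kb (Id4), 127 kb (Smad7), 137 kb (Smad2) and 202 kb (Nog) from the TSS, the last nearer to Gm525. Counted by gene, such peaks were listed for 5 of the 38 members (13.2%), against 2.63% of protein-coding genes.

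Several members had more than 1 peak. Of the 38 members 10 had at least 2 peaks (26.3%), against 4.11% of protein-coding genes, and 4 had at least 3 (10.5%), against 1.06%. These 4 were Bmp7, Smad7, Smad2 and Smad6. The counts, like the shares beside them, give a peak to every gene listed for it. Of the 30 peaks, 7 lay nearer to the TSS of a gene outside the set, among them peaks of Bmp7 and Smad2. The 2 peaks between Smad3 and Smad6 counted for both genes. Wide peaks were few, 4 of 30 over 2 kb (13.3%) against 22.8% of all peaks. They were the 2 of Nodal and 1 each of Lefty1 and Lefty2, so the Smad, Id, Bmp7, Nog, Inhbb and Acvr1 peaks were all at most 2 kb wide.

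**Figure D4:**
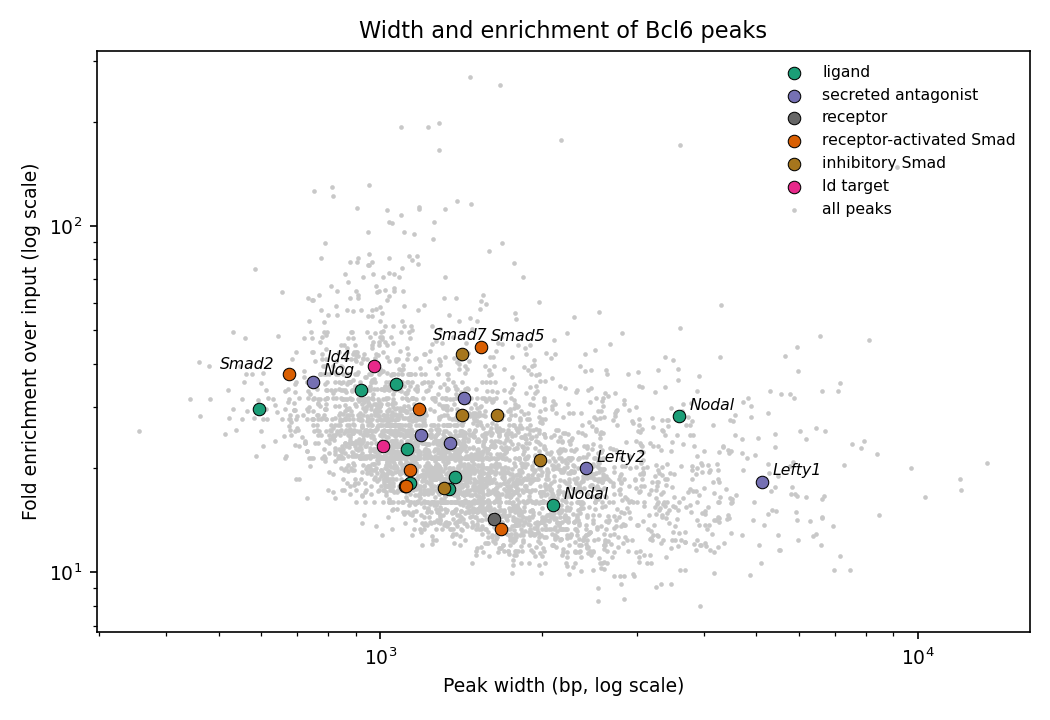
Width in bp (x axis) against fold enrichment over input (y axis), both on log scales, for all 3878 peaks (grey) and the 30 member peaks (coloured by role; the peaks shared by Smad3 and Smad6 carry the colour of Smad3). Names mark member peaks of at least 35.5-fold or over 2 kb wide. Peaks of Nodal, Lefty1 and Lefty2 stand to the right of the other member peaks, and those of Smad5, Smad7, Id4, Smad2 and Nog stand highest among member peaks, all under 2 kb wide.

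The 23 members without a listed peak were also counted by the peak closest to them. The peak closest to each of these genes lay a median of 400 kb from the gene (20.3 to 2240 kb), 15 of the 23 were over 100 kb away and 0 were within 10 kb. The gene list names peaks close to a TSS for that gene, so genes without a listed peak could have few close ones. The same distances were not computed for other genes without a listed peak. The shortest distances were those of Smad9, Bmpr1a and Id3, at 20.3, 32.3 and 35.0 kb. Chrd followed with a peak of 37.2-fold at 38.0 kb, but that peak lay 1.52 kb upstream of the TSS of Fam131a, for which it was listed.

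Further genes of the pathway were counted by role in the same way. Of 90 further genes of the pathway 27 had a peak (30%), 16 of them within 1 kb of the TSS (17.8%), against 20.1% and 10.8% of protein-coding genes. Intracellular regulators had a peak in 14 of 24 cases, 12 of them within 1 kb, whereas extracellular regulators had 1 in 1 of 27 (Pcsk6), ligands in 7 of 20, receptors and coreceptors in 5 of 13 and further targets in 0 of 6. With the members included, Smads and intracellular regulators had a peak in 20 of 32 cases (62.5%) and extracellular and receptor genes in 20 of 86 (23.3%), the second near the 20.1% of protein-coding genes. Within 1 kb of the TSS the counts were 16 (50.0%) and 6 (6.98%), against 10.8% of protein-coding genes. The lists were chosen with earlier results of these data known, so the contrast between the roles was not tested.

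Among these regulators, Usp9x, which encodes a deubiquitinase of Smad4, had 3 peaks, of 72.9-fold 135 kb downstream, 29.4-fold at 325 bp and 25.6-fold 57.2 kb upstream. The first of these was nearer to Ddx3x, at 74.4 kb. Smurf2, a ubiquitin ligase for Smads and receptors, had a peak of 39.4-fold 67.1 kb upstream, but 12.0 kb from Kpna2, and another of 24.3-fold 151 bp upstream of its TSS. Ski, a corepressor of Smad complexes, had 3 peaks of 13.2- to 18.6-fold, the weakest 766 bp upstream of its TSS. Tgif1, another corepressor, was listed for 9 of 12.0- to 19.8-fold, 1993 to 5261 bp wide. Map3k7, the kinase TAK1 of the Smad-independent branch, was listed for a peak of 37.1-fold 232 kb away that lay 42.3 kb from Bach2. The Nodal coreceptor gene Cfc1 carried 1 of 64.7-fold at 11.7 kb, also listed for Prss40 at 13.6 kb. Bmp8a was listed for 4 peaks of 12.4- to 23.1-fold at 68.5 to 333 kb, and Macf1 lay nearer to 3 of them.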

How the data were processed

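The data were a table of Bcl6 peaks and a list that names the genes for each peak, both for the pooled libraries of 3 Bcl6 ChIP and 3 input samples. Reads were aligned with Bowtie to mm10, per the submitters' processing notes. MACS 1.4.2 called the peaks, per the file headers, at a p cutoff of 1e-05 and at most 1 tag per position. Tags per peak are deposited as raw counts, fold enrichment is the ratio over local input that the authors' caller computed, the empirical FDR is the authors' percent, and the score was deposited as −10 log10 p (its column name was lost and was read from the column order and its minimum of 50.03). GREAT 3.0.0 named the genes, per the file headers, from 5000 bp before to 1000 bp after each TSS, with an extension of up to 1000000 bp. The positions in bp and the gene names are the authors', as deposited.

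Peak numbers were read as row numbers of the peak table. The TSS that follows from a peak and its listed distance lay within 500 bp of the RefSeq gene end for all 32 member pairs. Names were matched to RefSeq (GRCm38.p6) for 98.6% of 5801 pairs, with mitochondrial genes left out of the 21887. Counts and medians were computed with Python 3.11.15 and pandas 2.3.3, and parsing and the motif search were tested on simulated data. Each member with a peak was described with all its peaks. Further genes were named where their strongest peak was in the highest 10% by fold or they had at least 3 peaks, and the few others named were chosen after their values were seen. Members and lists were chosen with earlier results of these data known, so no list was tested. No genome sequence was used here, so the distal peaks were not searched for motifs.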

Additional observations from a re-analysis of the deposited data

How the results depend on the processing

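The counts depended on the score that a peak had to reach and on the distance allowed. Such limits remove peaks of other genes too. The shares over all protein-coding genes were not recounted under these settings, so the counts below cannot be set beside a background. With only peaks at or above the median score of all peaks, 9 of the 38 members had a peak, 12 peaks were left, and 2 members (Smad5 and Smad6) kept a promoter peak, against 15, 30 and 6 as reported. With peaks within 5 kb of the member's TSS 11 peaks were left, and with those within 50 kb 17. A promoter window of 5 kb in place of 1 kb raised the count of members with a promoter peak to 10. The median enrichment lay between 19.9- and 29.0-fold over the settings, against 23.3-fold as reported. Each setting kept all or part of the same 30 peaks, which are not replicates, so this range is no measure of error. An FDR of at most 5% changed none of the 4 results. Leaving out peaks over 2 kb wide removed Nodal alone and left 14 members. Giving each peak only to the nearest TSS removed Id1 alone and left 14 members with 23 peaks. No paired analysis was possible because the deposited tables hold pooled libraries only, and for the same reason no library could be left out. Depth limits the small peaks: 22 tags allow 13.8 to 33.3 by counting error alone.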

Other observations

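Other genes with a peak, chosen after their values were seen, were the Nodal coreceptor gene Tdgf1 (27.4-fold, 10.2 kb downstream of its TSS) and the ligand gene Gdf3 (14.8-fold over 4021 bp, at 1.48 kb). The type I receptor gene Acvr1b had a peak of 20.3-fold 16 bp from its TSS.

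Other developmental regulators were listed for some of the distal sites. Tfap2c lay nearer than Bmp7 to 3 of the 5 peaks listed for both, Gli2 shared the distal site of Inhbb at 252 kb, and Skor2, a Ski family corepressor gene, was listed at 478 kb for the narrow Smad2 peak. Pmepa1, also chosen after its values were seen, encodes a membrane inhibitor of receptor-activated Smads and carried a peak of 33.5-fold centred 22 bp before its TSS and another of 24.8-fold at 38.1 kb.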
